A study of Mus musculus with 22 samples.

Results

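The voltage-gated sodium, calcium and HCN channel genes were examined in the anterior cingulate cortex (ACC) of mice whose input from the basolateral amygdala (BLA) had been driven repeatedly. The set was taken by gene name and holds 30 genes of the 37786 in the count table: 5 alpha and 3 beta subunits of sodium channels, 8 alpha1, 4 alpha2delta and 4 beta subunits of calcium channels, 3 HCN channels, and the 3 genes of the sodium leak channel complex (Nalcn, Unc79 and Unc80). All 30 passed the minimum of 10 counts in at least 10 mice. RNA came from bulk ACC tissue of 22 adult male C57BL/6J mice, labelled wildtype, with 1 library per mouse. Both groups carried an AAV5 vector encoding ChR2 fused to EYFP, injected into the BLA on both sides, and an optic fibre implanted into the ACC on one side. The CaMKIIa promoter of the vector drives the opsin in neurons at the injected site, so that light in the ACC acts on terminals arriving from the BLA. The 12 control mice were handled in the same way with the light off, and the 10 stimulated mice received 9 sessions of blue light. Tissue from both hemispheres was taken after the last session, in the absence of further light, so the values describe the whole dissected cortex and not the cells contacted by those terminals. The comparison asks whether repeated BLA–ACC stimulation was accompanied by a different level of these channel transcripts.

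Voltage-gated sodium channels carry the rising phase of the action potential. Their alpha subunit forms the pore, and beta subunits set its gating and its place in the membrane. Calcium channels turn depolarization into calcium entry: the P/Q, N and R types serve transmitter release and dendritic calcium signals, the L types couple activity to transcription, and the T types open near rest and support bursts. Alpha2delta and beta subunits bring the calcium channel pore to the surface. HCN channels open on hyperpolarization and set resting conductance and rhythmicity, while the Nalcn complex passes a background sodium leak. In bulk tissue, a difference in transcript level can come from fewer cells of a type or from less RNA per cell, and these cannot be told apart.

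Total counts ranged from 24563116 to 36542883 in controls and from 23090483 to 43668462 in stimulated mice. The library numbers in the labels fall into 2 runs, and no library with the number 7 was analysed here. Numbers 1 to 11 hold 4 stimulated mice beside 6 controls, and numbers 12 to 23 hold 6 of each group. The labels do not call these runs a batch, but the study prepared its animals in 2 batches and adjusted for batch, so the run was kept as a term beside group in every test unless stated otherwise. Neuronal markers were abundant, with summed CPM (counts scaled to library size by TMM) of 10 excitatory neuron genes between 3133 and 3973 in libraries 1 to 11 and between 4869 and 7953 in libraries 12 to 23. Controls 9 and 11 stood apart, with 10 oligodendrocyte markers summing to 19860 and 14610 CPM against 2368 to 6334 in all other mice. Group differences of the channel genes with an unadjusted p under 0.05, and of Scn4b, are given with and without these mice. Fold changes of the other channel genes over all mice are not repeated without them.

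Promoters are shown for context, namely those of the channel genes with an unadjusted p under 0.05 between groups for which RefSeq sequence was at hand. Each window covers 250 bases before to 50 after the RefSeq start of GRCm38.p6, 5′ to 3′ on the strand of the gene. Capitals mark the GC box letters GGGCGG read on either strand. They occur in the Hcn4 window in the reverse orientation and not in the other windows.
Hcn4, chr9:58822699-58822998, plus strand: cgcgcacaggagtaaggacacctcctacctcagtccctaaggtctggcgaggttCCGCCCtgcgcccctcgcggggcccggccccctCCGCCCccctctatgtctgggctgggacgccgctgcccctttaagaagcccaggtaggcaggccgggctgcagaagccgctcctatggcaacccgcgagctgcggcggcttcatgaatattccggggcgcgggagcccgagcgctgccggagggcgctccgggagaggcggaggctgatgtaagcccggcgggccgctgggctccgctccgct
Scn1a, chr2:66440788-66441087, minus strand: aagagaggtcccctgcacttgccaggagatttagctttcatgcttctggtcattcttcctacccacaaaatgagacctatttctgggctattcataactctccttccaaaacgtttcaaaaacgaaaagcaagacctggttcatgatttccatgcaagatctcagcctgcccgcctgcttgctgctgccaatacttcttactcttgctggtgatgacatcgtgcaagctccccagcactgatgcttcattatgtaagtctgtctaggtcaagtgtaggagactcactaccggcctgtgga
Unc80, chr1:66467684-66467983, plus strand: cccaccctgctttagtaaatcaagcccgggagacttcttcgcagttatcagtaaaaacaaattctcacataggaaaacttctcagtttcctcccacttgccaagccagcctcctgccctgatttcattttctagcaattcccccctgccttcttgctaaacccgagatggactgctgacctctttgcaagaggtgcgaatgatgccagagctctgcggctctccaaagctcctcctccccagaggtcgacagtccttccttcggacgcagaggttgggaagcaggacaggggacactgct
The windows differed in base composition, with 71.7% G and C and 31 CpG dinucleotides for Hcn4, 47.3% and 5 for Scn1a, and 52.7% and 8 for Unc80, beside a median of 52.7% G and C over all 32851 windows. Windows were found for 23 of the 30 genes, 33 windows in all. GGGCGG was present in 13 of these 33 and in 35.7% of all windows, and TGACG, a core of the cyclic AMP response element, in 5 of 33 and in 20.8% of all. A match of one motif can share at most 1 base with a match of the other. These counts describe letters only.

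The level of each gene was read as CPM per kb of exon, which allows genes to be compared with each other. The channel genes spanned a wide range in both groups. The highest was Cacnb3, a cytoplasmic calcium channel beta subunit, with a control mean of 75.8 ± 13.6 (SD, n = 12) and a stimulated mean of 79.4 ± 8.33 (SD, n = 10). Later values follow that order, with the same error. Hcn2 followed at 41.3 ± 14.4 and 40.1 ± 12.0. The beta subunits Cacnb4 (22.9 ± 3.47 and 21.3 ± 3.53) and Cacnb1 (21.3 ± 6.04 and 25.1 ± 6.61) came next over all mice and did not differ from each other beyond their spread. That order held neither within libraries 1 to 11, where Scn2b preceded both with a mean of 25.1 over both groups, nor within libraries 12 to 23, where Cacnb1 (27.1) and Scn3b (23.2) preceded Cacnb4 (23.1). Beta subunits headed the order of calcium channel transcripts, the 4 of them summing to a median of 120.8 CPM per kb in controls. The 4 alpha2delta subunits summed to 18.7. Alpha1 subunits were summed by type, to 9.11 for the P/Q, N and R types, 6.08 for the T types and 2.04 for the L types. The alpha2delta subunits were not ranked against all alpha1 subunits together.

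Among sodium channel alpha subunits, Scn2a, the main pore of excitatory cortical neurons, was highest at 17.5 ± 5.48 CPM per kb in controls and 19.5 ± 6.52 in stimulated mice. Scn8a, concentrated at the axon initial segment and nodes, stood at 11.1 ± 2.67 and 11.9 ± 2.98. Scn1a, prominent in fast-spiking interneurons, stood at 8.21 ± 2.14 and 6.87 ± 1.01, and its range overlapped that of Scn8a. Scn3a, the form typical of the embryonic brain, was lower at 2.52 ± 0.947 and 2.87 ± 1.11. Scn9a, best known from sensory neurons, was the lowest of all 30 genes at 0.118 ± 0.0238 and 0.105 ± 0.0287, with 22 to 94 counts per mouse.

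The pore-forming calcium channel genes lay within a narrower band. Cacna1a, the P/Q type pore, was the highest of its class at 3.82 ± 0.860 CPM per kb in controls and 3.82 ± 0.692 in stimulated mice, followed by Cacna1e (R type) and Cacna1b (N type) at 2.78 ± 0.602 and 2.59 ± 0.499 in controls. The L type genes Cacna1d and Cacna1c stood at 1.101 ± 0.2594 and 1.01 ± 0.258 in controls and could not be ordered within their spread. Of the T type genes, Cacna1i reached 2.74 ± 0.672, Cacna1h 2.29 ± 1.03 and Cacna1g 2.16 ± 0.312 in controls, again within their spread of each other. Cacna2d3 led the alpha2delta subunits at 10.6 ± 2.26 in controls and 11.0 ± 2.45 in stimulated mice, while Cacna2d4 stood at 0.347 ± 0.133 and 0.359 ± 0.0655. In the sodium leak complex, Unc80 (7.21 ± 0.880 and 6.39 ± 0.836) and Nalcn (5.23 ± 2.40 and 5.85 ± 2.83) were above Unc79 (2.58 ± 0.384 and 2.56 ± 0.457). Hcn4 stood at 0.292 ± 0.144 in controls, where it was the second lowest gene, and at 0.481 ± 0.222 in stimulated mice, above Cacna2d4.

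**Figure D1:**
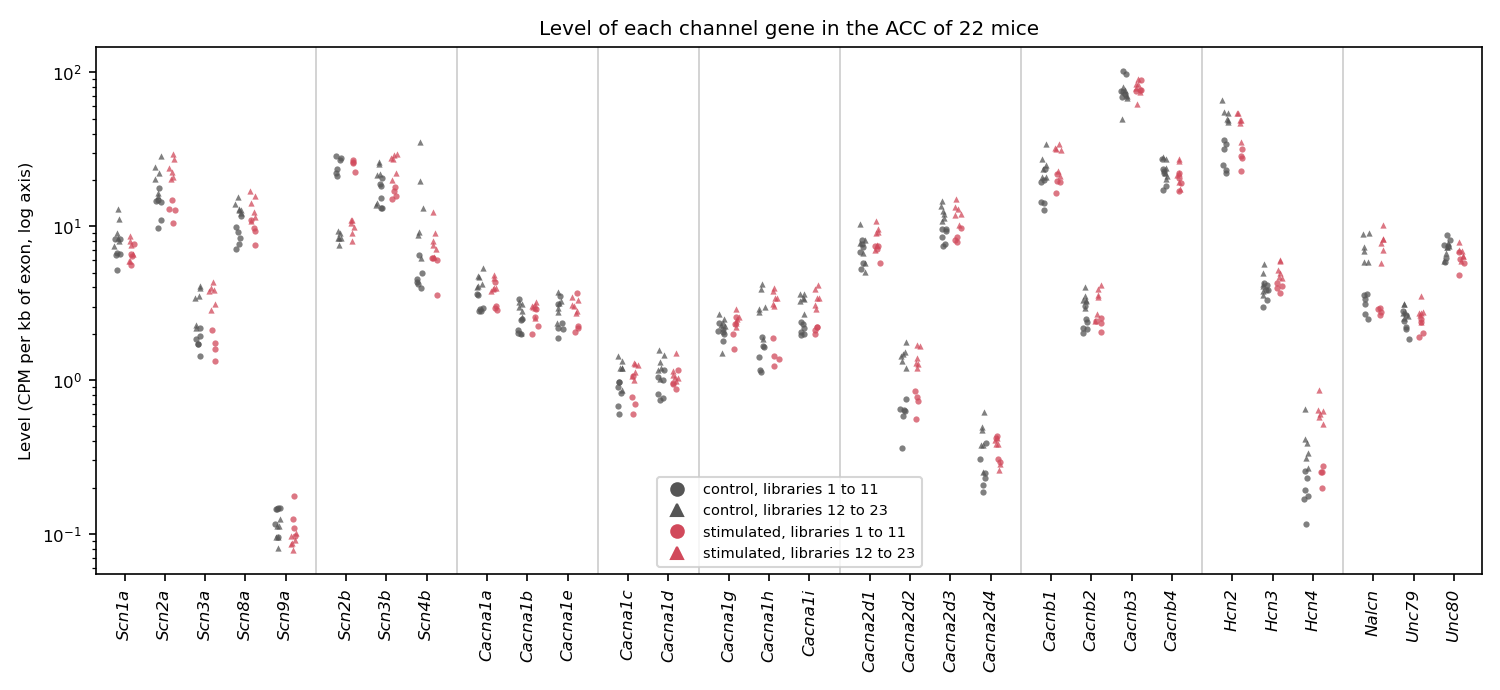
Level of each channel gene in CPM per kb of exon (log axis), 1 point per mouse, by role from sodium channel alpha subunits on the left to the sodium leak complex on the right. Grey points are controls and red points stimulated mice, with circles for libraries 1 to 11 and triangles for libraries 12 to 23. Cacnb3 lies highest and Scn9a lowest, and circles and triangles separate for genes such as Scn2b, Cacna2d2 and Nalcn.

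Between stimulated mice and controls, no channel gene passed adjustment over the 17524 genes tested (edgeR quasi-likelihood test, smallest adjusted p = 0.313, for Hcn4). Across all genes the count was also 0, with a smallest adjusted p of 0.241. At an unadjusted p under 0.05 there were 4 channel genes of 30, beside 2015 of all genes (11.5%). Hcn4 and Hcn3 were higher in stimulated mice (6.05% of all genes were higher at this threshold), and Scn1a and Unc80 were lower (5.45% were lower). The sign was positive for 17 channel genes and negative for 13, and their median log2 fold change was 0.04 beside 0.01 over all genes. Without controls 9 and 11 the signs were 15 positive and 15 negative, with a median of -0.003 beside 0.014 over all genes. The share of channel genes at an unadjusted p under 0.05, with all mice, was thus near that of the table as a whole.

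Hcn4, the slowly gated HCN channel known from pacemaker tissue and thalamus, had the largest difference of the set. Its gene lies on chromosome 9 at 58823412 to 58863175 (GRCm38, plus strand), and it was read with 20 to 138 counts per mouse. In libraries 1 to 11 the controls had 0.704, 1.03, 1.08, 1.17, 1.41 and 1.56 CPM and the stimulated mice 1.216, 1.54, 1.54 and 1.70 CPM. All 4 stimulated mice were above the control median of 1.13, and the groups overlapped. In libraries 12 to 23 the controls had 1.65, 1.91, 2.06, 2.38, 2.53 and 3.95 CPM and the stimulated mice 3.17, 3.52, 3.70, 3.83, 3.91 and 5.27 CPM. All 6 stimulated mice were above the control median of 2.22, with control 10 the only control among them. The log2 fold change was 0.55 (SE 0.16, 95% interval 0.23 to 0.88), or 46.8% higher, with an unadjusted p of 0.00152 and an adjusted p of 0.313 (edgeR). Within the runs it was 0.38 (p = 0.160) and 0.66 (p = 0.00531). The value stayed between 0.49 and 0.65 when each mouse was left out in turn, and was 0.45 (p = 0.00836) without controls 9 and 11.

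Hcn3, an HCN channel with slow kinetics and little response to cyclic AMP, lies on chromosome 3 at 89146074 to 89160196 on the minus strand. Controls ranged from 12.3 to 17.8 CPM (median 16.0) in libraries 1 to 11 and from 14.9 to 23.5 (median 17.3) in libraries 12 to 23. Stimulated mice ranged from 15.3 to 17.7 (median 16.8) and from 19.0 to 25.0 (median 21.1). In the second run all 6 stimulated mice were above the control median, and 2 were above every control. The log2 fold change was 0.18 (SE 0.08, p = 0.0359, adjusted p = 0.408, edgeR), with 0.11 and 0.22 in the runs. The unadjusted p stayed under 0.05 in 13 of the 22 fits that left out 1 mouse, and was 0.135 without controls 9 and 11. Of its 4154 exonic bases, 17.1% overlap Pklr on the opposite strand, and the library kit does not mark strand, so reads from the genes cannot be told apart there. Hcn2, the most abundant HCN gene here, had a log2 fold change of -0.11 (SE 0.09, p = 0.242), with control medians of 90.9 and 167.4 CPM and stimulated medians of 89.7 and 156.2 CPM in the runs. The HCN genes thus had no common direction.

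The ratio of Hcn4 to Hcn2, both per kb, had a control median of 0.00733 in libraries 1 to 11 and 0.00688 in libraries 12 to 23, beside 0.00898 and 0.0117 in stimulated mice. Hcn4 thus remained a small part of HCN transcripts in every group.

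Scn1a was lower in stimulated mice. The gene lies on chromosome 2 at 66270778 to 66440840 on the minus strand, in the cluster that also holds Scn3a, Scn2a and Scn9a. In libraries 1 to 11, controls had 57.7 to 91.5 CPM (median 74.1) and stimulated mice 62.3 to 85.1 (median 72.0). In libraries 12 to 23, controls had 83.3 to 145.3 CPM (median 97.1) and stimulated mice 65.8 to 96.4 (median 78.6). All 6 stimulated mice of this run were below its control median, while the groups overlapped in both runs. The log2 fold change was -0.27 (SE 0.10, 95% interval -0.48 to -0.05, p = 0.0160, adjusted p = 0.359, edgeR). It was -0.07 (p = 0.622) within libraries 1 to 11 and -0.46 (p = 0.00457) within libraries 12 to 23. The highest values of Scn1a, 145.3 and 124.4 CPM, belonged to controls 9 and 11, the mice with the most oligodendrocyte marker RNA. Without them the log2 fold change was -0.14 (p = 0.133). The 10 oligodendrocyte markers were all lower in stimulated mice at an unadjusted p under 0.05, their median log2 fold change being -0.69, and 1 of them was without controls 9 and 11 (median -0.11). Pvalb, a marker of fast-spiking interneurons, was also highest in controls 9 and 11, at 60.9 and 57.2 CPM against 11.7 to 51.7 in the other mice. Its log2 fold change was -0.26 (p = 0.232, adjusted p = 0.644, edgeR), and 0.11 without them. The part of these mice's tissue content in the difference of Scn1a was not tested.

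The other alpha subunits differed little. Scn2a had a log2 fold change of 0.05 (SE 0.11, p = 0.659), with control medians of 184.3 and 268.9 CPM and stimulated medians of 162.5 and 296.1 CPM in the runs. Its groups overlapped in both runs and its sign differed between them. Scn3a stood at 0.06 (SE 0.11), Scn8a at 0.04 (SE 0.09) and Scn9a at -0.14 (SE 0.14). The ratio of Scn1a to Scn2a per kb in libraries 12 to 23 was 0.307 to 0.790 in controls (median 0.386) and 0.263 to 0.317 in stimulated mice (median 0.303). Controls 9 and 11 held the highest ratios, 0.790 and 0.705, and without them the controls ranged from 0.307 to 0.395 (median 0.347). In libraries 1 to 11 the medians were 0.494 and 0.521, in the opposite order.

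Unc80, the large scaffold that holds the sodium leak complex together, lies on chromosome 1 at 66468367 to 66699148 on the plus strand. In libraries 1 to 11 the controls ranged from 84.9 to 126.3 CPM (median 108.1) and the stimulated mice from 69.4 to 97.6 (median 85.7), all 4 below the control median. In libraries 12 to 23 the controls ranged from 85.3 to 112.5 (median 105.5) and the stimulated mice from 85.4 to 114.4 (median 95.7), 5 of 6 below the control median. The log2 fold change was -0.18 (SE 0.08, 95% interval -0.34 to -0.02, p = 0.0277, adjusted p = 0.385, edgeR), with -0.31 and -0.10 in the runs. The unadjusted p exceeded 0.05 without stimulated mouse 1 or without stimulated mouse 3, the highest being 0.0792. It was 0.0174 without controls 9 and 11. Its partners stood closer to 0, Unc79 at -0.04 (SE 0.08) and Nalcn, the pore, at -0.01 (SE 0.10).

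**Figure D2:**
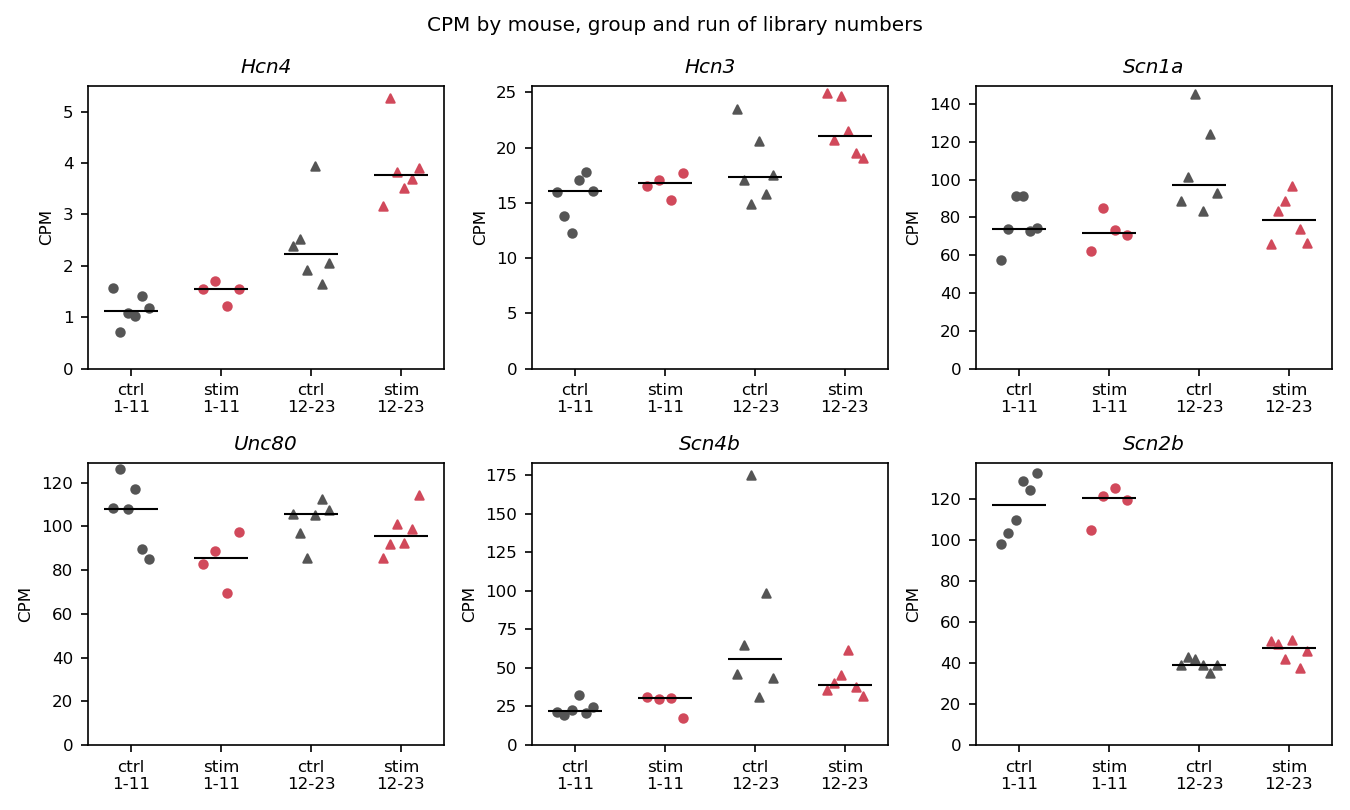
CPM of 6 channel genes, 1 point per mouse, in controls (grey) and stimulated mice (red) of libraries 1 to 11 (circles) and 12 to 23 (triangles). Lines mark medians. The Hcn4 medians are higher in stimulated mice in both runs (1.54 against 1.13 and 3.76 against 2.22 CPM), the Scn4b controls of libraries 12 to 23 reach 175.2 CPM, and Scn2b is lower in libraries 12 to 23 in both groups.

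Of the sodium channel beta subunits, Scn4b, a partner of the alpha subunit linked to resurgent current, had the log2 fold change farthest from 0 after Hcn4, -0.39, with the largest SE of the set, 0.24, and a p of 0.113. In libraries 12 to 23 the controls had 31.1, 43.5, 45.8, 65.1, 98.2 and 175.2 CPM and the stimulated mice 31.6, 35.7, 37.4, 40.0, 45.2 and 61.3 CPM. The top values were those of controls 11 and 9. In libraries 1 to 11 controls had 19.6 to 32.4 CPM (median 22.1) and stimulated mice 17.8 to 31.0 (median 30.4). The log2 fold change was 0.22 in libraries 1 to 11 and -0.90 (p = 0.0145) in libraries 12 to 23. Without control 9 it was -0.14, and without controls 9 and 11 it was 0.03 (p = 0.809). Scn4b and the oligodendrocyte markers were thus highest in the same mice, and the part of that tissue content in the difference was not tested. Scn2b, which links to the alpha subunit and raises its surface level, stood at 0.13 (SE 0.07, p = 0.0603). Scn3b stood at 0.19 (SE 0.12, p = 0.120) and had 18.5 ± 4.66 CPM per kb in controls and 22.1 ± 5.73 in stimulated mice. This made it the highest sodium channel beta subunit over all mice, but in libraries 1 to 11 Scn2b was higher, with a control mean of 25.0 CPM per kb against 16.5. Its control medians were 91.6 and 118.3 CPM and its stimulated medians 89.0 and 150.2 CPM in the runs.

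None of the 16 calcium channel genes had an unadjusted p under 0.05. The gene of each class with the highest median level per kb over all mice is given by its medians in libraries 1 to 11 and 12 to 23. For the L type this is Cacna1d, although it could not be ordered against Cacna1c. Cacna1a had control medians of 33.4 and 51.0 CPM and stimulated medians of 34.1 and 45.1 CPM, with a log2 fold change of -0.03 (SE 0.08, 95% interval -0.20 to 0.13). Cacna1d had 11.4 and 15.8 CPM in controls and 12.0 and 13.5 CPM in stimulated mice, with a log2 fold change of -0.06 (SE 0.10). Cacna1i had 20.9 and 33.5 CPM in controls and 21.3 and 33.7 CPM in stimulated mice, with a log2 fold change of 0.03 (SE 0.07). These differences were smaller than the spread between mice. The remaining pore genes lay between -0.05 for Cacna1c and 0.09 for Cacna1g.

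Among the accessory calcium channel subunits, Cacna2d3 had control medians of 77.9 and 107.3 CPM and stimulated medians of 72.2 and 108.4 CPM, and a log2 fold change of -0.00 (SE 0.07). Cacna2d1, a subunit bound by gabapentin, stood at 0.17 (SE 0.11, p = 0.132), Cacna2d2 at 0.09 (SE 0.11) and Cacna2d4 at 0.06 (SE 0.17). Cacnb3 had control medians of 302.2 and 283.8 CPM and stimulated medians of 306.7 and 328.3 CPM, with a log2 fold change of 0.09 (SE 0.09). Cacnb1 stood at 0.18 (SE 0.11, p = 0.117), Cacnb2 at -0.02 (SE 0.09) and Cacnb4 at -0.12 (SE 0.09). For Cacnb4, 16.0% of the exonic bases overlap A430018G15Rik on the opposite strand. The groups of every channel gene overlapped within each run.

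The intervals bound the size of the differences that these libraries leave possible. The 95% interval of the log2 fold change included 0 for 26 of the 30 channel genes and lay within 0.5 of 0 on either side for 28, the exceptions being Hcn4 and Scn4b. With group as the only term, 1 channel gene, Hcn4, had an unadjusted p under 0.05, beside 3.61% of all genes. Within libraries 1 to 11 there were 2 (Unc80 and Cacna2d4, beside 5.56% of all genes), and within libraries 12 to 23 there were 4 (Hcn4, Scn1a, Scn2b and Scn4b, beside 12.4%). Without controls 9 and 11 there were 2 (Hcn4 and Unc80, beside 8.16%).

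**Figure D3:**
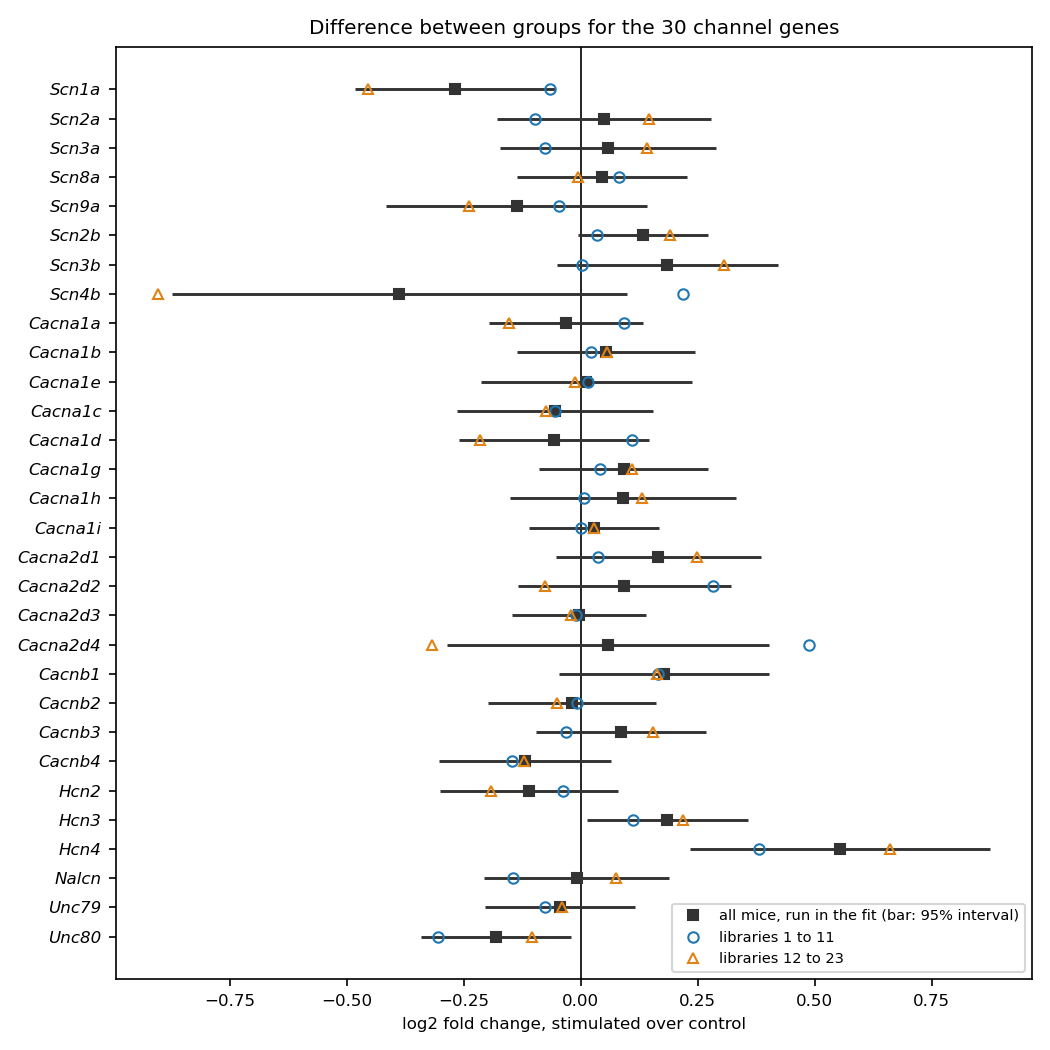
log2 fold change of stimulated mice over controls for the 30 channel genes. Squares and bars give the fit over all mice with its 95% interval, open circles the value within libraries 1 to 11 and open triangles the value within libraries 12 to 23. Hcn4 lies farthest to the right at 0.55, and the values of Scn4b (0.22 and -0.90) and Cacna2d4 (0.49 and -0.32) lie on opposite sides of 0 in the runs.

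The difference between groups had different signs in the runs for 11 of the 30 channel genes, a count that was not taken over all genes. Tested as an interaction, it passed adjustment for no gene of the table (edgeR, smallest adjusted p = 0.518), and 1403 genes had an unadjusted p under 0.05 (8.01%). Of the channel genes 2 did, Scn4b (interaction -1.08, p = 0.0191) and Cacna2d4 (-0.76, p = 0.0210), and 0 did without controls 9 and 11. For Cacna2d4, controls of libraries 12 to 23 ranged from 2.39 to 5.86 CPM, with the highest value in control 11 and the second highest, 4.70 CPM, in control 9.

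The channel genes differed more between the runs of library numbers than between the groups. Between libraries 12 to 23 and libraries 1 to 11, 25 of the 30 channel genes passed an adjusted p under 0.05 (edgeR), beside 68.1% of all genes. Of these, 23 were higher in libraries 12 to 23, beside 33.7% of all genes, and 2 were lower, Scn2b and Scn9a. The median log2 fold change was 0.46 for the channel genes and -0.03 for all genes. For 29 of the 30 the run difference was larger than the group difference, the exception being Unc80 (0.06 between runs). The share of all genes with a larger run difference was not counted, so this is not read as particular to the channel genes. The largest increase was that of Nalcn, at 1.34 (SE 0.10), with 36.6 to 53.3 CPM in the controls of libraries 1 to 11 and 85.8 to 132.4 CPM in those of libraries 12 to 23. Scn4b (1.20), Hcn4 (1.19), Cacna1h (1.13) and Cacna2d2 (1.13) followed. Without controls 9 and 11 the value of Scn4b was 0.77, lower than that of Scn3a (1.06), while Hcn4, Cacna1h and Cacna2d2 stood at 1.28, 1.20 and 1.09. The count of 25 was the same without these mice, but Scn1a (adjusted p = 0.103) and Cacna2d4 (adjusted p = 0.240) no longer passed (edgeR). Scn2b fell by 1.47 (SE 0.07), from 98.0 to 133.0 CPM in controls of the first run to 35.0 to 43.2 in those of the second. Scn2b and Scn4b are neighbours on chromosome 9, at 45117782 to 45130070 and 45138395 to 45154152 on the plus strand, and they moved in opposite directions. Ratios within a complex moved too: Nalcn to Unc80 per kb had a control median of 0.461 in the first run and 0.988 in the second, and a stimulated median of 0.468 and 1.29. With the longest transcript as length these medians were 0.899 and 1.93 in controls and 0.913 and 2.52 in stimulated mice, so which gene stood higher depended on the length used in the second-run controls, while the rise between runs did not.

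Over 17516 genes with an annotated length, the run difference rose with exon length (Spearman's rho = 0.617, as a description across genes of the same libraries). The channel genes are long, with a median of 10039.5 exonic bases against 3995 for all genes, and 8.33% of all genes exceed that median. Within the set the rho was -0.056 over 30 genes. The mitochondrial share of counts also differed, from 1.63% to 4.81% in libraries 1 to 11 and from 0.982% to 1.90% in libraries 12 to 23. The part of length, RNA quality or tissue content in the run difference was not tested.

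**Figure D4:**
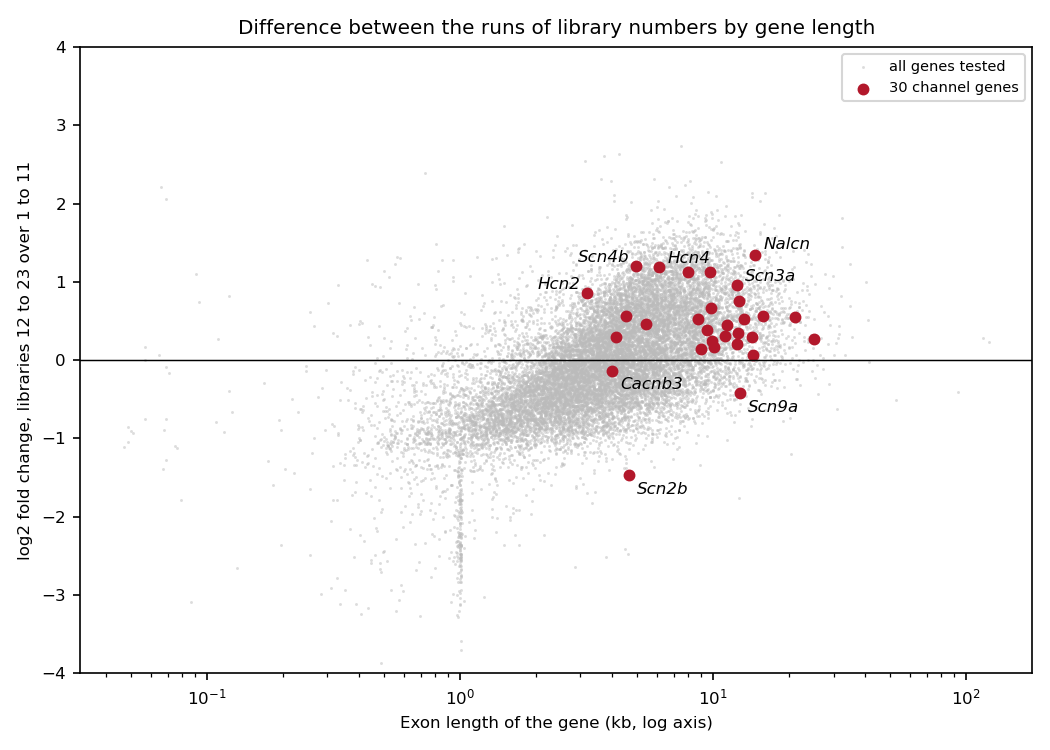
Difference between libraries 12 to 23 and 1 to 11 (log2 fold change) against exon length in kb (log axis), 1 point per gene. Grey points are all genes tested and red points the 30 channel genes. Of the channel genes, 29 are longer than the median of all genes and 27 lie above 0, while Scn2b lies at -1.47.

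The rest of these channel families was read from a list of 17 further subunits, of which 12 passed the count minimum. In the group comparison 7 were higher and 5 lower, the median log2 fold change being 0.07. The one with an unadjusted p under 0.05 was Cacng3, a transmembrane AMPA receptor regulatory protein named for its likeness to calcium channel gamma subunits, at 0.26 (SE 0.09, p = 0.00552, adjusted p = 0.329, edgeR). Of 17 channel partners tested, 8 were higher and 9 lower, with a median of -0.00. Those with an unadjusted p under 0.05 were Calm3, a calmodulin gene, at 0.14 (SE 0.06, p = 0.0379), and, with lower values, Fgf11, an intracellular fibroblast growth factor homologue of the family that binds sodium channels, at -0.35 (SE 0.11, p = 0.00457). Ank3, which encodes ankyrin G and anchors sodium channels at the axon initial segment, stood at -0.17 (SE 0.08, p = 0.0421), and Sptbn4, the spectrin of the same scaffold, at -0.14 (SE 0.06, p = 0.0265). None of these partners passed adjustment. The 4 of 17 at an unadjusted p under 0.05 stand beside 11.5% of all genes, and they became 1 of 17 with group alone and 1 of 17, Fgf11, without controls 9 and 11.

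Markers of other cells in the dissection were read in the same fit. Of 10 excitatory neuron markers, 6 were higher and 4 lower, with 2 and 1 at an unadjusted p under 0.05, beside 6.05% of all genes higher and 5.45% lower at that threshold. Of 10 inhibitory neuron markers, 7 were higher and 3 lower, and Slc32a1, Sst and Npy were higher at that threshold, with log2 fold changes of 0.31, 0.24 and 0.25. All 10 astrocyte markers were lower, 1 at that threshold, and of 10 microglial markers 8 were higher and 2 lower, with 0 at that threshold. Of 6 oligodendrocyte progenitor markers 5 were lower, and of 10 endothelial and mural markers 9 were lower, with 1 of each list at that threshold. In the progenitor list this was Olig2, at -0.29 (p = 0.0395, edgeR), which the study describes for the oligodendrocyte lineage. Pdgfra, the study's marker of progenitors, stood at -0.12 (p = 0.0725, edgeR). Without controls 9 and 11, the progenitor markers had 0 at that threshold and a median log2 fold change of -0.02 in place of -0.13, while the endothelial and mural list still had 1. Of 10 striatal projection neuron markers, 9 were higher and 1 lower (median log2 fold change 0.09), none of them at that threshold. Without controls 9 and 11, 1 was, Penk, at 0.36 (p = 0.00126, edgeR) in place of 0.22, and the median was 0.07. The striatal markers summed to 244.2 to 330.7 CPM in controls and 247.0 to 365.1 CPM in stimulated mice. Of 5 choroid plexus markers tested, 4 were lower, 2 at that threshold, and their sums ranged from 7.87 to 136.3 CPM in controls (to 50.4 without control 3) and from 6.73 to 18.7 CPM in stimulated mice. No marker on these lists was at 0 in every mouse, and the part of tissue content in the differences of the channel genes was not tested.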

How the data were processed

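Full-length cDNA was amplified from 5 ng of total RNA in 10 PCR cycles. Per the labels and the study's methods, the authors used cutadapt 1.10 for trimming and STAR 2.5.3a for alignment to mm10, and obtained counts of uniquely aligned reads per Ensembl gene with HTSeq 0.6.1p1; the strand setting is not given in the sources used here. They deposited raw counts per mouse, which were tested here, and counts divided by size factors, a signal that was not used. Further deposited columns hold their own comparison by DESeq2 1.22.1 with RNA integrity and batch as covariates (fold changes and p-values) and were not used. RNA integrity is not in the labels.

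The edgeR package (4.0.16, under R 4.3.3) was applied to these counts (TMM, glmQLFit, glmQLFTest) with run of library numbers and group as terms, over the 17524 genes that reached 10 counts in 10 or more mice. Adjustment was by Benjamini-Hochberg over all of them. P-values are unadjusted where not called adjusted. SEs are the log2 fold change over the square root of F. Tested on simulated counts with known changes, the fit missed part of the changed genes, more of them at the smaller change. Alternatives used DESeq2 1.42.0, limma 3.58.1 and sva 3.50.0, other filters, terms and subsets, and 22 fits without 1 mouse each. Levels are TMM CPM over the union of exons in GENCODE M21 (GRCm38), where 37772 of 37786 identifiers were found. Motifs were searched on both strands of RefSeq windows. No libraries had counts agreeing within sampling noise (231 pairs). Counts of a gene limit precision by counting error and by spread between mice.

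Channel genes with an unadjusted p under 0.05, and the highest gene per kb of each role, are given in full. The members, lists and tests were chosen with earlier results of these data known. Some genes of the lists are not reported here by name.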

Additional observations from a re-analysis of the deposited data

Results flagged for a closer look

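Each channel gene was screened in each group within each run for a mouse standing far from the rest of its group (Dixon's ratio at the 95% level). Of 120 such sets, 9 held one, where chance would give about 6. Stimulated mouse 4 accounted for 3 of them: 17.8 CPM for Scn4b beside 30.02 to 30.96 in the other stimulated mice of libraries 1 to 11, 49.5 CPM for Cacna1a beside 32.4 to 34.7, and 92.5 CPM for Cacna1e beside 51.5 to 56.8. Control 9 accounted for 2, both T type genes: 15.3 CPM for Cacna1g beside 22.8 to 27.0 in the other controls of libraries 12 to 23, and 26.3 CPM for Cacna1i beside 32.4 to 35.9. Control 9 is also the mouse with the most oligodendrocyte marker RNA, 19860 CPM over 10 genes.

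Stimulated mouse 1 had 357.9 CPM of Cacnb3 beside 302.7 to 306.9 in the rest of its set. Stimulated mouse 7 had 18.9 CPM of Cacna1d beside 12.5 to 14.4, and stimulated mouse 10 had 50.5 CPM of Unc79 beside 34.04 to 39.54. Stimulated mouse 6 had 5.27 CPM of Hcn4 beside 3.17 to 3.91. Without that mouse the unadjusted p of Hcn4 was 0.00429, its highest over the 22 fits that left out 1 mouse (edgeR).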

How the results depend on the processing

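No channel gene passed adjustment in any of the 12 alternatives or the 22 fits without 1 mouse. The channel genes with an unadjusted p under 0.05, 4 with run and group, numbered 1 with group alone, 9 with 1 surrogate variable, 2 within library numbers 1 to 11, 2 without controls 9 and 11, and 3 to 6 when each mouse was left out. Over all genes that count, 2015 of 17524 tested, became 632 with group alone and 3503 with 1 surrogate variable. It became 974 within library numbers 1 to 11, and 1561 to 2489 without 1 mouse. With no count minimum it was 3687 of 37571 tested. The 0 genes with an adjusted p under 0.05 became 33 in the DESeq2 Wald test, 1 in limma voom, 66 with 1 surrogate variable, 1 without controls 9 and 11, and 0 to 1 without 1 mouse (1 without control 9). The 2 channel genes with an interaction became 0 without controls 9 and 11. The causes were not tested. Hcn4 kept an unadjusted p under 0.05 in 11 of 12 alternatives, Unc80 in 9, Hcn3 in 8 and Scn1a in 7. Over the single results for channel genes, 22 passed and 24 lost the unadjusted threshold under an alternative, 974 did neither, and none with a p under 0.05 changed sign.

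With the replicate number as a replicate block, 1291 genes and 5 channel genes had an unadjusted p under 0.05 without the run, and 1980 and 5 with it. Same-numbered mice are different animals; deviations correlated above 0.1 in 8 of 10 same-numbered pairs, and in 3 of 10 once the run was removed, and 3 controls correlated best with their own number, so the numbers were not taken to pair the mice. With the longest transcript as length, levels per kb changed by a median of 1.32 times over all 30 genes (at most 2.63), beyond 1 SD for 19, and 4 of the 5 highest genes were shared. The medians over all mice of Nalcn and Unc80, 5.81 and 6.81 CPM per kb, became 12.0 and 7.21, and those of Cacnb4 and Cacnb1, 22.1 and 21.5, became 24.1 and 28.6. Those of Cacna1d and Cacna1c, 1.05 and 1.03, became 1.37 and 1.66, so all of these orders turned. Size factors moved no level beyond 1 SD. The fit of the run difference without controls 9 and 11, levels within runs and the ratio without those mice were added after seeing the data.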
